A study of Sus scrofa with 13 samples.

Results

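Stretches of the pig genome at which 5-hydroxymethylcytosine (5hmC) peaks were called in nearly all hypoxia libraries and in almost no normoxia library numbered 1019, of 395289 merged peak regions on chromosomes 1 to 18. They were chosen by the peak calls themselves. Peaks of the 12 deposited lists that shared at least 1 base were merged, and a region was kept when at least 5 of 6 hypoxia and at most 1 of 6 normoxia libraries had a peak in it. The 1019 are 0.258% of all regions, and the reverse rule kept 274 (0.0693%). Because the hypoxia and normoxia calls made the choice, every comparison of the groups within these regions is given as a description, without a test.

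The DNA came from stromal (mesenchymal) cells that were cultured from abdominal fat of female domestic pigs. All donors of both groups had been fed cholesterol-rich chow and carried a coil that narrows a renal artery, a model of atherosclerotic renovascular disease. The hypoxia group was kept at 1% oxygen for 48 hours, and the normoxia group at 20% oxygen. The titles carry the numbers 4, 16, 21, 33, 49 and 110, each on 1 hypoxia and 1 normoxia library. The labels do not explain these numbers or give the age of the pigs, and no group from pigs without the diet and the coil is among the samples. The reads measure 5hmC and not expression, so the labelled cell type could not be checked against marker genes. Nothing says that libraries of a group came from different animals, so the spread between them may be technical.

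5hmC is made when TET enzymes oxidise methylated cytosine, a reaction that uses oxygen, iron and 2-oxoglutarate. It is an intermediate on the way to unmethylated DNA and also a mark that persists, found mostly in gene bodies and at enhancers of active genes. Low oxygen stabilises the HIF transcription factors, which switch on genes of glycolysis, mitophagy and blood vessel growth. HIF prolyl hydroxylases, the oxygen sensors that mark HIF for destruction, belong to the same broad enzyme class as the TETs.

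The length of the lists differed between libraries. Hypoxia lists held 151252 to 233207 peaks and normoxia lists 104718 to 254811. Total reads in the count tables ran from 15569948 to 27428482. The shortest list was that of normoxia 21, followed by normoxia 33 with 147508 peaks, and the longest that of normoxia 4. Title numbers 4 and 49 were sequenced in lane 8 and the others in lane 7, per the file names, so both libraries of a number shared a lane.

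Most of the 1019 regions were only just within the rule. A peak in 5 hypoxia and 1 normoxia library was found in 740 regions, in 6 and 1 in 167, and in 5 and 0 in 101. Peaks in all 6 hypoxia and no normoxia library were found in 11 regions (0.00278% of all). No region had a peak in all 6 normoxia and no hypoxia library. Just outside the rule lay 3554 regions with 5 hypoxia and 2 normoxia peaks and 2572 with 4 and 1. Their median lengths were 504 and 430 bases, either side of the 457 bases of the 740, and their median mean folds were 5.49 and 5.17, against 5.24. The members next to the threshold thus had values between those of the regions on its other side.

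**Figure D1:**
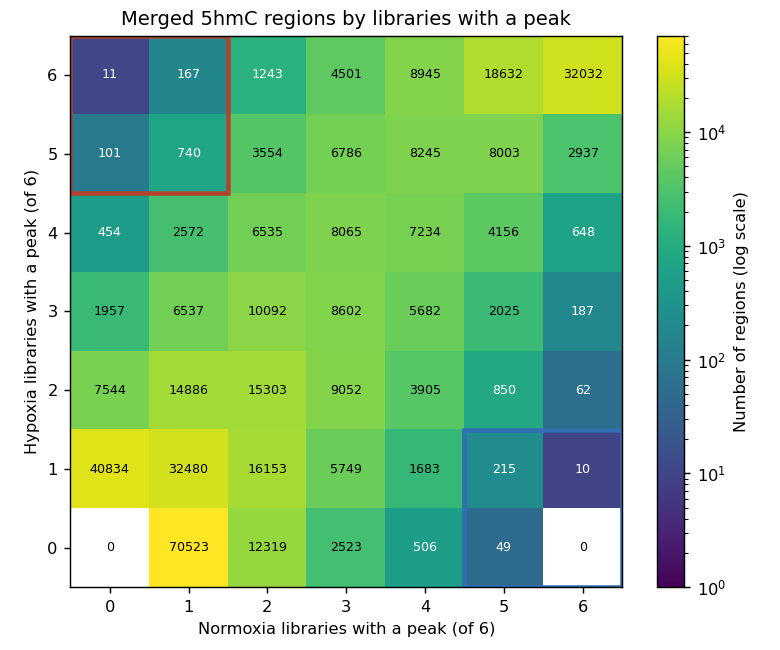
Number of merged 5hmC regions by how many of 6 normoxia libraries (x axis) and of 6 hypoxia libraries (y axis) had a peak, coloured on a log scale. The red outline holds the 1019 regions mostly in hypoxia, of which 740 sit in the cell with 5 hypoxia and 1 normoxia peaks, and the blue outline the 274 of the reverse rule.

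Libraries did not contribute evenly. Of the 1019 regions, 771 to 983 had a peak in a given hypoxia library (median 887). Hypoxia 21 had a peak in the most, 983, and hypoxia 110 in the fewest, 771. In normoxia the number per library ran from 14 to 395 (median 100.5). Normoxia 4 had a peak in 395, normoxia 16 in 251, normoxia 49 in 117, normoxia 21 in 84, normoxia 110 in 46 and normoxia 33 in 14. Of the 907 regions with 1 normoxia peak, that peak was in normoxia 4 in 43.6% and in normoxia 33 in 1.54%. The share of all merged regions with a peak was 54.6% in normoxia 4 and 28.6% in normoxia 33. In both lanes each hypoxia library had a peak in more of the regions than any normoxia library, a direction that the rule fixes. Within a title number, regions with a peak in hypoxia alone ranged from 550 (number 4) to 905 (numbers 21 and 33), and regions with one in normoxia alone from 1 (number 33) to 71 (number 4).

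**Figure D2:**
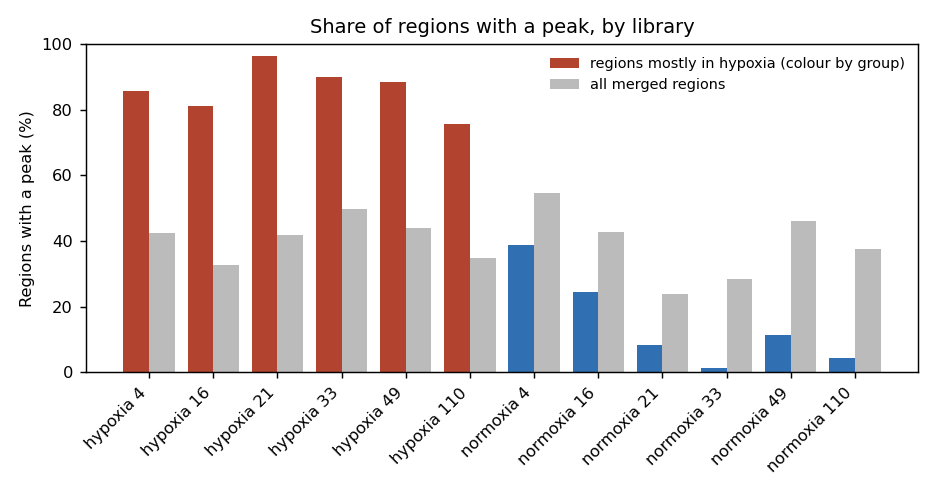
Percent of regions with a peak in each library, for the 1019 regions mostly in hypoxia (red for hypoxia, blue for normoxia libraries) and for all 395289 merged regions (grey). Hypoxia 21 had a peak in 96.5% of the 1019, and normoxia 33 in 1.37% of them against 28.6% of all regions.

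The regions were short and their peaks modest. Their length ran from 212 to 1999 bases, with a median of 458 (quartiles 388 and 562). Other regions with peaks in 5 to 7 libraries, 60592 in number, had a median of 513 bases, the reverse regions 552, and the 32032 regions with a peak in all 12 libraries 1364. Fold enrichment is the authors' value per peak; what it is relative to is not stated. Over the hypoxia libraries with a peak, the mean fold of a region ran from 3.40 to 11.5, with a median of 5.22. It reached 6 in 176 regions, 8 in 15 and 10 in 3. Peaks in the regions stood low in their own lists. Their median fold was 4.72 to 5.32 in the 6 hypoxia libraries, against 5.67 to 6.02 for all peaks of the same libraries, and their median rank was at percentile 27.5 to 38.5.

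Where a normoxia library did have a peak, its fold was much like that of the hypoxia peaks. In 470 of the 907 regions with 1 normoxia peak (51.8%), the normoxia fold was above the mean of the hypoxia folds. The medians were 5.40 for the normoxia peak and 5.24 for the hypoxia mean. These folds come from separately called lists and give no change in 5hmC.

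The regions lay somewhat farther from genes and from strong 5hmC regions than the other regions with peaks in 5 to 7 libraries. Regions next to the threshold did so too. Gene models of the RefSeq table for assembly Sscrofa11.1 overlapped 603 of the 1019 (59.2%), against 64.4% of the other regions with peaks in 5 to 7 libraries, 67.5% of the reverse regions and 63.8% of all. The table gives no exons, so introns and UTRs could not be told apart. Outside genes, the median distance to the nearest gene model was 26.5 kb, against 22.2 kb for the other regions with 5 to 7 libraries. The nearest region with a peak in all 12 libraries was a median of 29.7 kb away, against 17.2 kb for the other regions with 5 to 7 libraries and 9.11 kb for the reverse regions. Regions next to the threshold were alike in this, with medians of 25.4 kb for those with 5 and 2 peaks and 27.1 kb for those with 4 and 1. Gene models overlapped 60.1% of those with 5 and 2 peaks and 58.3% of those with 4 and 1. Outside genes, their median distances to a gene model were 26.0 and 25.2 kb. The place of the regions is thus not particular to them.

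Every chromosome from 1 to 18 held some of them. Chromosome 1 held the most, 123. As a share of a chromosome's merged regions they ranged from 0.186% on chromosome 17 (23 regions) to 0.355% on chromosome 18 (36 regions). The 95% intervals (Wilson), which take regions as independent, were 0.124 to 0.280% and 0.256 to 0.490%. Both include the 0.258% of all merged regions. The next region of the set on the same chromosome was a median of 680 kb away. Another lay within 100 kb for 128 regions (12.6%) and within 10 kb for 13 (1.28%). Neighbours were also counted for each region in turn, so a merged region near several of the set counts several times. Of the neighbours so counted, 0.363% were themselves in the set within 10 kb, 0.342% within 100 kb and 0.276% within 1000 kb. The share of all merged regions, each counted once, was 0.258%, which is not a like measure. When regions up to 100 kb apart were joined, 891 stood alone, 55 groups held 2 and 6 held 3.

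The tightest group of 3 lay at BNIP3, which encodes an outer mitochondrial membrane protein of mitophagy and is a HIF target. It spanned 9.66 kb (chr14:140359876-140369539) and took in 3 of the 6 merged regions there.

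Positions here and below are counted from 1, on a build that the deposited files do not name. The last peak of each chromosome lay 0.821 to 176 kb from the last gene of the Sscrofa11.1 table, and gene names were read from that table on this footing. The first BNIP3 region, chr14:140359876-140361028 (1153 bases), lay 1.09 kb outside the gene model and had a peak in all 6 hypoxia libraries. Their folds were 5.86 in hypoxia 110, 6.88 in 16, 7.16 in 21, 10.2 in 33, 11.3 in 4 and 16.5 in 49, with a mean of 9.65. The single normoxia peak, in normoxia 49, had a fold of 6.94, above the 2 lowest hypoxia values. The second, chr14:140361087-140361578, lay 0.544 kb outside the gene and had no normoxia peak, with hypoxia folds of 4.53 to 10.0 in 5 libraries. The third, chr14:140368623-140369539 (917 bases), lay inside the gene and had folds of 4.20 to 13.5 in 5 hypoxia libraries and no normoxia peak. Hypoxia 16 was the library without a peak in both.

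The next group of 3 lay at chr1:76884046-76922313 (38.3 kb), near GTF3C6, a subunit of the RNA polymerase III factor TFIIIC, and in RPF2, which acts in ribosome assembly. It took in 3 of 11 merged regions, with mean folds of 4.56 to 7.22. The third group, chr4:7934427-8000113 (65.7 kb), lay between ST3GAL1, a sialyltransferase, and NDRG1, a stress response gene and HIF target. It took in 3 of 30 merged regions, with mean folds of 4.45 to 7.57, and its nearest region to NDRG1 was 14.3 kb from the gene. All 6 regions of both groups had 5 hypoxia and 1 normoxia peaks. The other 3 groups lay on chromosomes 6 and 18.

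The 11 regions with peaks in all 6 hypoxia and no normoxia libraries were not the strongest of the set. Their median mean fold was 5.25, beside 5.22 for all 1019, and 5 of the 11 lay inside a gene model. The exception was chr7:4239415-4239973 (559 bases), 16.1 kb from the uncharacterised LOC110261767 and 82.8 kb from LY86, a partner of a Toll-like receptor homologue. Its hypoxia folds were 5.46 in number 4, 6.70 in 33, 10.9 in 110, 12.9 in 16, 13.7 in 21 and 19.1 in 49, and its mean fold of 11.5 was the highest of all 1019. The region at chr7:109213587-109213990 had the most even folds of the 11, from 5.52 to 6.84, and lay 475 kb from any gene model. At chr15:77054456-77054818, 19.6 kb from GAD1, which makes the transmitter GABA, folds ran from 5.31 to 7.22 with a median of 6.09.

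Those within genes included MTSS1, SOX5, PCBD2 and FGD5. In MTSS1, an actin-binding protein that bends membranes, chr4:15042148-15042791 had folds of 5.16 to 7.01 (median 5.77). In SOX5, a transcription factor of cartilage formation, chr5:49428477-49428969 had folds of 4.15 to 6.24 (median 5.45). The region in PCBD2, a pterin dehydratase, was chr2:137104799-137105353, with folds of 4.25 to 6.46 (median 4.89). In FGD5, an exchange factor for the GTPase Cdc42 in endothelium, chr13:69656817-69657377 had folds of 4.05 to 6.64 (median 4.43). The medians in SOX5, PCBD2 and FGD5 were under the 5.67 to 6.02 typical of all peaks in these libraries, and that of MTSS1 fell within that range.

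The other 3 lay outside genes. The region at chr1:191514861-191515260 was 20.0 kb from NTRK3, the receptor of neurotrophin-3, with folds of 3.47 to 5.12. At chr13:179610457-179610926, 101 kb from SAMSN1, folds ran from 3.89 to 7.11. The weakest was chr7:90185146-90185607, 12.5 kb from LOC110261688, where folds ran from 3.15 to 4.69.

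**Figure D3:**
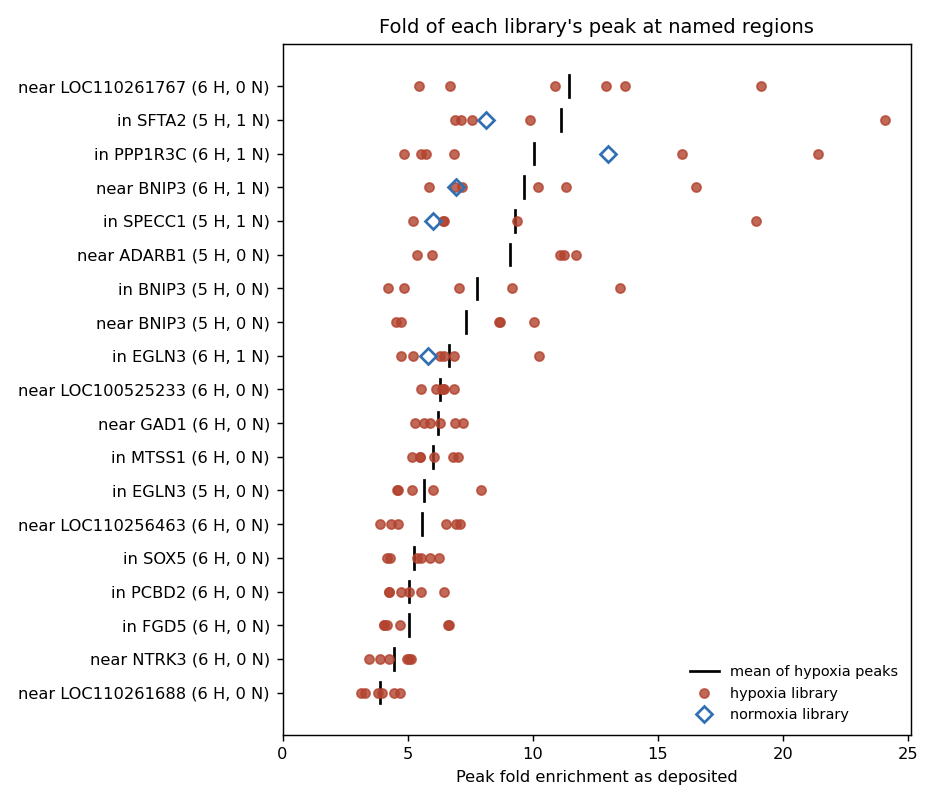
Deposited fold enrichment (x axis) of each library's peak at 10 of the 11 regions with all 6 hypoxia (H) and no normoxia (N) peaks, the 5 others with the highest mean fold, and further regions at BNIP3 and EGLN3. Circles are hypoxia libraries, diamonds the single normoxia peak, and bars the hypoxia mean; at PPP1R3C the normoxia 49 peak, 13.0, lies above 4 of 6 hypoxia peaks.

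Among the other regions, a few libraries carried the highest mean folds. In SFTA2, a small secreted protein known from the lung, chr7:23421259-23422359 (1101 bases) had hypoxia folds of 6.88 in number 16, 7.14 in 4, 7.56 in 110, 9.88 in 21 and 24.1 in 49. Its normoxia 49 peak had a fold of 8.14, above 3 of the 5 hypoxia values. In PPP1R3C, which brings protein phosphatase 1 to glycogen and promotes glycogen storage, chr14:103275454-103276168 (715 bases) had folds of 4.85 in number 33, 5.54 in 110, 5.72 in 16, 6.83 in 21, 16.0 in 4 and 21.4 in 49. The normoxia 49 peak there had a fold of 13.0. The same library, hypoxia 49, was highest in SPECC1, a coiled-coil protein, at chr12:59515794-59516330 (5.23 to 18.9). At chr13:207722474-207722872, 24.0 kb from ADARB1, an RNA-editing adenosine deaminase, there was no normoxia peak, and folds were 5.36 in 110, 5.98 in 49, 11.1 in 33, 11.2 in 4 and 11.7 in 21.

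The 5 longest regions beyond the 11 were of 1537 to 1999 bases and had 5 hypoxia peaks and a single normoxia peak each. In all 5 that peak was in normoxia 21, and its fold was above the highest hypoxia fold in 3 of them. The longest was chr11:27996050-27998048, 317 kb from the nearest gene model, with hypoxia folds of 3.67 to 7.98 and 7.32 in normoxia 21. The region in LOC110262096, chr1:176754740-176756613, had hypoxia folds of 3.09 to 5.20 and 7.15 in normoxia 21. The others lay 99.1 kb from LMO3 (chr5:55956010-55957817), 45.6 kb from PRR15 (chr18:43134094-43135728) and 234 kb from FGF20, a fibroblast growth factor (chr17:4456375-4457911). Peaks of normoxia 21 were wide in general, with a median of 557 bases against 258 to 371 in the other 11 libraries.

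Genes that hold a region numbered 581 of 27651 models (2.1%). A single region was held by 543 genes, 2 by 34 and 3 or more by 4 genes. TENM3, a teneurin of neuronal wiring, held 4 among its 263 merged regions (1.52%), and SOX5 held 4 among 225 (1.78%). CTIF, a translation initiation factor of the nuclear cap-binding complex, held 3 among 133 (2.26%). The share over all gene models was 0.239%, but these genes were picked for holding the most regions. Their models are long, at 2583.6 kb (TENM3), 1006.5 kb (SOX5) and 321.8 kb (CTIF), against a median of 15.4 kb for all. In SOX5 3 of the 4 had peaks in all 6 hypoxia libraries, and the single normoxia peak of the other 3 SOX5 regions was in normoxia 4 each time.

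HIF targets were on a list of 57 genes, 56 of which had a gene model. Of these, 3 held a region (5.36%), beside 2.1% of all gene models. The median length of the 56 models was 25.1 kb, against 15.4 kb for all. EGLN3 held 2 regions, BNIP3 1 and FAM162A 1. That is 4 of the 660 merged regions inside the 56 genes (0.606%), beside 0.239% over all gene models. With a margin of 10 kb, chosen after the values were seen, it was 7 of 963 (0.727%), beside 0.243%. The 7 include the first and second BNIP3 regions, counted apart. The mean fold of 6 of the 7 was above the median of the 1019, and their median was 7.32. As the 7 lie at only 4 genes, they are not separate cases. Mean folds were 4.96 to 7.75 for the regions inside the genes and 7.32 to 9.65 for those that the margin added. These are folds of the hypoxia peaks by which the regions were chosen. Whether regions at HIF targets have higher folds was not tested.

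In EGLN3, a HIF prolyl hydroxylase that is itself induced by HIF, chr7:65820004-65820423 had peaks in all 6 hypoxia libraries. Their folds were 4.73 in number 33, 5.20 in 110, 6.30 in 4, 6.45 in 16, 6.84 in 21 and 10.3 in 49, and the normoxia 49 peak had 5.81, within that range. The other EGLN3 region, chr7:65809270-65810159 (890 bases), had folds of 4.56 to 7.93 in 5 hypoxia libraries and no normoxia peak. In FAM162A, a mitochondrial protein induced by hypoxia, chr13:138132337-138132844 had folds of 3.77 to 5.70 in 5 hypoxia libraries and 5.01 in normoxia 110. Outside GAPDH, the glycolytic dehydrogenase, by 1.11 kb, chr5:64136300-64137375 (1076 bases) had folds of 4.60 to 10.8 (median 7.65) in all 6 hypoxia libraries and a peak in normoxia 16. It lies inside the models of NCAPD2, a condensin subunit, and LOC110260753, and is counted here only by its distance to GAPDH. GAPDH has many near-identical pseudogene copies in mammals, and how reads that map to several places were placed is not stated.

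The other lists held few regions each, and their shares stand beside the 0.239% of merged regions inside all gene models. SOX5 was the 1 gene of the bone and cartilage list, with 4 of 745 merged regions (0.537%). The matrix and TGF-beta list gave 2 of 2079 (0.0962%), both in LTBP1, which binds latent TGF-beta. Angiogenesis gave 1 of 1385 (0.0722%), in PDGFD, a growth factor of the PDGF family, and the stromal surface markers 1 of 308 (0.325%), in ITGA5, a fibronectin receptor subunit. Oxygen sensing gave the 2 EGLN3 regions of 224 (0.893%). Within 10 kb but outside the genes lay regions near TNC, a matrix glycoprotein (mean fold 8.91, 3.78 kb), IDH1, which makes 2-oxoglutarate (5.18, 0.13 kb), IGF1 (4.59, 1.95 kb), PDGFRA (4.68, 9.52 kb, inside LOC100739256) and TNFRSF1B, a TNF receptor (4.94, 8.65 kb). With this margin the share was 0.243% over all gene models. It was 0.126% (3 of 2379) in the matrix list, 0.186% (3 of 1614) in angiogenesis and 0.174% (1 of 575) in inflammation. The DNA methylation enzymes gave 1 of 252 (0.397%) and the stromal markers 2 of 436 (0.459%).

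No region lay inside genes of 7 of the 14 lists: DNA methylation enzymes, adipocyte lineage, cell cycle, inflammation, and endothelial, epithelial and immune cell markers. These lists held 63 to 431 merged regions, and a count of 0 allows a share of up to 0.696% in the adipocyte and 4.76% in the epithelial list. None of these limits is under the 0.239% of all genes, so an absence was not detectable.

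Of the 30 neuronal genes 11 held a region, beside 2.1% of all gene models. They held 16 in all, or 0.528% of their 3031 merged regions, beside 0.239% over all gene models, and 4 of the 16 were among the 214 that stay without number 21. The median length of the 30 gene models was 1058 kb, against 15.4 kb for all. They include, with 2 regions each, DLG2, a postsynaptic scaffold, GRIN2B, an NMDA receptor subunit, and RBFOX1, a splicing factor. NRXN2, PTPRD, CTNNA2, OPCML, PCDH9 and CSMD1 held 1 each. The highest fold among them was in DLG2, at chr9:17836143-17836674, where hypoxia 21 had 14.8 and the other hypoxia peaks 4.72 to 9.44.

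Read counts at the genes came from the same libraries, so they give no independent view of the difference. They need not hold the reads of a gene's regions either. Outside any counted feature lay 88.0 to 93.0% of reads, while 63.8% of merged regions overlapped a gene model. Values are CPM, a gene's reads scaled to the same total of reads counted in genes, and 1.69 to 2.89% of reads were so counted. PPP1R3C had 76.4 to 228 in hypoxia (median 107) and 21.4 to 130 in normoxia (median 46.2). It was higher in hypoxia in 6 of 6 title numbers, and the groups overlapped. EGLN3 had 12.7 to 78.2 (median 37.4) against 1.40 to 30.4 (median 12.6), also higher in 6 of 6 with overlap. SFTA2 had 10.9 to 99.7 (median 28.4) against 0 to 28.2 (median 4.49), from 0 to 51 reads per library. How many of all genes went the same way in all 6 numbers was not counted. These genes were named for regions chosen by their hypoxia peaks, so the 6 of 6 has no base share to be read against.

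BNIP3 had 6.56 to 40.1 (median 17.2) against 3.79 to 12.3 (median 6.94) and was higher in 5 of 6 numbers, on 1 to 25 reads. FAM162A had 10.9 to 72.3 (median 27.8) against 4.20 to 52.8 (median 27.2), with nearly equal medians. For genes holding several regions, the log2 ratio of hypoxia to normoxia (group means plus 1) was 0.03 in SOX5, -0.03 in TENM3 and -0.02 in CTIF. LTBP1, which held 2 of the regions, was at -0.38 and lower in hypoxia in all 6 numbers.

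**Figure D4:**
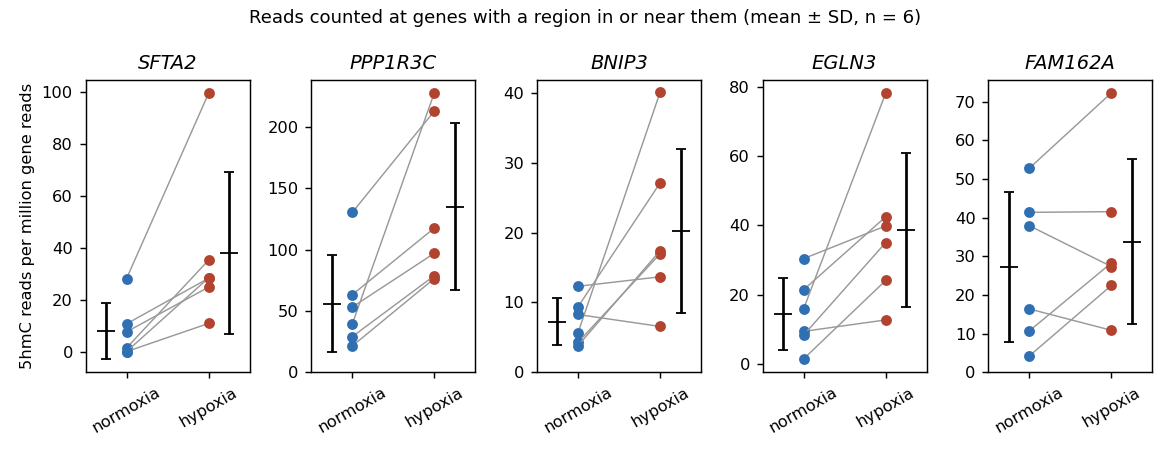
5hmC reads as CPM of gene reads (y axis) in normoxia (blue) and hypoxia (red) libraries at 5 genes, with grey lines joining libraries of a title number and black bars for mean ± SD (n = 6). PPP1R3C, SFTA2 and EGLN3 were higher in hypoxia in all 6 numbers, and the groups overlapped at every gene. The share of all genes higher in all 6 was not counted.

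Over all such genes the shift was small. Of the 510 region-holding genes with a mean of at least 10 CPM, 287 had a higher mean in hypoxia (56.3%), beside 51.8% of all 16979 genes. Their median log2 ratio was 0.04, and that of all genes 0.01.

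With title number 21 set aside, the 2 sides were of about the same size under the looser rule, and the hypoxia side was the larger under the stricter. With 5 libraries a group, at least 4 hypoxia and at most 1 normoxia peaks occurred in 2430 regions, while the reverse rule gave 2582. All 1019 stay under that rule by arithmetic. With all 5 hypoxia libraries required, 487 regions were chosen, of which 214 were among the 1019 (21.0% of these and 43.9% of the 487), and 261 in the reverse direction. Which of the 1019 stay is fixed by their peaks too: the 11 and 167 regions with 6 hypoxia peaks must stay, as must the 36 without a hypoxia 21 peak, and the rest must drop out. The 214 therefore say nothing about those regions beyond their peak calls. The region in PPP1R3C is among those with 6 peaks, and the region in SFTA2, with 5 peaks of which 1 was in hypoxia 21, is among those that drop out. The ratio of the hypoxia side to the reverse was 3.72 with all libraries and at least 5 peaks, and 1.64 with all libraries and at least 4 peaks (4045 and 2463). With a number left out and at least 4 of 5 peaks, it was 0.941 without number 21, 1.12 without 33, 4.07 without 49, 4.13 without 16, 4.60 without 110 and 6.87 without 4. With all 5 required, the 2 sides held 1820 and 48 regions (number 4 left out), 1630 and 62 (16) and 303 and 67 (33). They held 530 and 44 (49) and 646 and 36 (110). The reverse side was thus largest, 261, without number 21. The share of the 1019 that stay, which their peaks fix, was also lowest there, 21.0% against 27.4 to 41.8%. Both the threshold and the number left out thus go with the ratio.

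**Figure D5:**
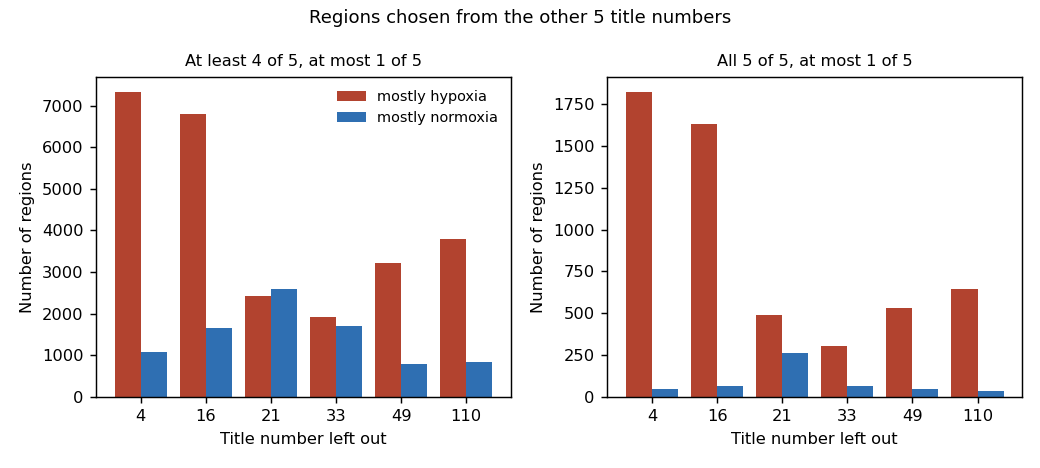
Number of regions mostly in hypoxia (red) and mostly in normoxia (blue) when each title number (x axis) was left out, with at least 4 of 5 (left) or all 5 (right) libraries required on the side with peaks. Without number 21 the left panel gives 2430 against 2582, and the right panel 487 against 261.

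Single libraries were left out as well, which also lowers the threshold to 4 of 5 for the shortened group. Without normoxia 21 alone, 1926 regions met the rule and 2204 its reverse. Without hypoxia 21 alone, the numbers were 1391 and 384, and without normoxia 33 alone 1148 and 877. These settings lower the threshold on different sides, so their counts do not rank the libraries.

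How the chosen regions looked in libraries that did not choose them differed by number. Regions were chosen from 5 numbers (at least 4 hypoxia and at most 1 normoxia peaks) and read in the sixth, beside all regions with 4 to 6 peaks in the same 10 libraries. In number 33, 54.6% of the chosen regions had a hypoxia and 9.30% a normoxia peak, against 59.2 and 27.1% of the comparison regions. In number 49 it was 59.9 and 42.7%, against 53.3 and 51.7%. In number 110 it was 38.0 and 31.1%, against 36.5 and 41.4%. In these 3 numbers the hypoxia share exceeded the normoxia share by 11.8 to 15.7 percentage points more than in the comparison regions.

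The other 3 numbers did not follow. In number 21 the shares were 76.6 and 47.7%, against 47.2 and 18.5%, so both shares were higher and the difference was 28.9 points beside 28.7. In number 16 they were 57.0 and 72.9%, against 35.3 and 51.0%, with more normoxia than hypoxia peaks in both. In number 4 they were 50.5 and 83.8%, against 54.8 and 64.6%, and hypoxia minus normoxia was -33.3 points beside -9.72. The 6 choices share libraries, and no test was run.

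Which regions were chosen also changed when the weaker peaks of the lists were left out. With the same 104718 peaks from each list, those with the highest −log10 p, 732 regions met the rule and 317 its reverse. Only 32 of the 1019 (3.14%) overlapped one of the 732, and 32 of the 732 (4.37%) one of the 1019. Of the 7 regions in or near HIF targets 2 overlapped, and of the 11 with 6 and 0 peaks 3 did. Without the lowest 25% of each list 1132 regions were chosen, which overlapped 207 of the 1019 (20.3%), 4 of the 7 and 4 of the 11. Both overlaps were computed after the counts had been seen. Lists of equal length also lose weak peaks, and the peaks in the 1019 stood low in their lists. List length and peak strength are therefore not told apart by these values, and the part of each was not tested.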

How the data were processed

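Samples were grouped by the treatment label. Per the labels' protocols, sonicated and denatured DNA was captured with an antibody to 5hmC and sequenced from both ends. Tools listed in the submitters' processing notes, with no version, are MACS2, HTSeq, Bowtie2, Picard and edgeR. For every library the authors deposited a peak list and a table of raw counts by gene symbol. In column order, the values deposited for a peak are a score, its fold (a ratio), and the −log10 of its p-value and of its q-value. The lowest deposited −log10 q-value was 2.00. The sources used here do not give the genome build, the control of the peak calls, or the feature type and strand setting of the counts. Rows that name no gene held 88.0 to 93.0% of reads as outside any feature and 4.12 to 10.3% as of low alignment quality, and were left out.

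Peaks were merged with Python 3.11.15, pandas 2.3.3 and numpy 2.4.6. The merge gave the same 395289 regions as bedtools 2.31.1 and was tested on simulated lists, where 1966 of 1966 regions were recovered. CPM were computed here from the deposited counts, over the reads counted in genes. Of the 581 genes holding a region 575 matched a row of the count tables. Across 18702 genes, peaks and counts per kb correlated at Spearman's rho of 0.087 to 0.282 per library, and at -0.129 to -0.069 when peaks were shifted by 5 Mb, a description of how far the files and the RefSeq table share positions.

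Regions named are those with 6 and 0 peaks, of the others the 5 longest and the 5 with the highest mean fold, and, of the 6 groups of 3, those with the 3 shortest spans. Genes named are those in or nearest to these, those with 3 or more regions, and list members that hold 1; those within 10 kb were added later. The regions and the gene lists were chosen with earlier results of these data known. Alternatives were other merging distances, shorter lists, chromosome X, other numbers of libraries, and each title number or library left out. The input sample and chromosomes Y and M were not analysed here. Some named genes and regions are not reported here. No sequence is shown, since no genome was used here.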

Additional observations from a re-analysis of the deposited data

Results flagged for a closer look

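In 2 of 53 groups of values checked, the highest or lowest library lay far from the rest of its group (Dixon's criterion). Chance gives about 1 in 20 for groups not picked by their values, which does not hold here: the SFTA2 region was named for its high mean fold, which hypoxia 49 itself raised. Both values were of hypoxia 49 at SFTA2, and so are not separate. The fold of its peak in the SFTA2 region was 24.1, with a gap to the next of 5 values that made up 0.826 of their range. Its read count at the gene was 99.7 CPM, with a gap of 0.725 of the range of 6 values. That count rests on at most 51 reads, and the normoxia library of the same number was also the highest of its group.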

How the results depend on the processing

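The 1019 regions mostly in hypoxia became 1023 and the 274 mostly in normoxia 270 when peaks had to share 100 bases, and 985 and 261 when peaks up to 100 bases apart were merged. They became 1132 and 199 without the lowest 25% of each list, 732 and 317 with lists of equal length, and 1059 and 280 with chromosome X. The thresholds moved them more, by construction: 112 and 49 with none of the other group allowed, 4045 and 2463 with at least 4 libraries, and 5816 and 1186 with up to 2 of the other group. Without number 21 and with all 5 other libraries required they were 487 and 261, the second added after the data were seen. Leaving out title numbers or single libraries, with the threshold lowered to 4 of 5 for a shortened group only, gave 1148 to 7319 regions mostly in hypoxia and 348 to 2582 mostly in normoxia. The 1148 (without normoxia 33) and the 348 (without hypoxia 16) kept 5 of 6 on the side counted. The same settings gave 12 to 175 regions with a peak in every hypoxia and no normoxia library, in place of 11. The hypoxia side was the smaller in 2 settings, without number 21 and without its normoxia library. The threshold was lowered for both sides in the first and for the normoxia side alone in the second. Over all settings the median length ran from 414 to 605 bases, the median fold from 4.94 to 6.85, the share inside a gene from 55.4 to 62.6% and the share with another region within 100 kb from 3.57 to 51.8%, which grows with the number of regions. The depth behind a peak is not in the lists, so an absent peak may be 5hmC below the calling threshold.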
